A study of Mus musculus with 48 samples.

Results

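The genes described here are those of the epithelial lining of the mouse caecum that hold cells together, give them their keratin skeleton and microvilli, or make up the mucus above them. They were taken from the caecum table by gene name, as claudins, zonula occludens and other tight junction proteins, cadherins, catenins, desmosomal proteins, Epcam, keratins, villin, microvillar cadherins, mucins, trefoil factors, Fcgbp and the Clca family. Of the 3779 genes tested in the caecum, 35 met this rule: 16 junction genes, 7 keratins, 3 brush border genes and 9 mucus genes. These groups follow gene names, and the mucus genes are Muc2, Muc13, Fcgbp, Tff3 and the Clca members.

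BALB/cOlaHsd mice, 8 weeks old at the start, received 500 µl by gavage every day for 30 days, and the RNA of their caecum was hybridized to 16 Agilent arrays in 1 colour, 1 array per mouse. The Chic group (3 mice) received a decoction of chicory flour, 30 mg of root powder a day, the Fru group (3 mice) a fructose solution, the CGA group (3 mice) chlorogenic acid and the STL group (3 mice) sesquiterpene lactones, bitter compounds of the chicory root. Chic and Fru were compared with Ctr1 (2 mice) and CGA and STL with Ctr2 (2 mice), so Chic and Fru share their control mice, and so do CGA and STL. For both controls the labels name water as the solvent, whereas the methods give DMSO for Ctr2 where the feeding is described and drinking water where the arrays are described. The labels tag Fru 2, Fru 3 and all CGA and STL mice as female while their source names and the methods say male, and Eif2s3y, a gene of the Y chromosome, lay between 7.57 and 9.40 (log2) on all 16 arrays. The labels name the tissue caecum, as the arrays section of the methods does, and the collection section names colon. The separate mice of a group are its replicates, numbered as in the labels.

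In the caecum 1 layer of columnar cells faces the gut content. Near the top of each cell, tight junctions close the gap between neighbours, and below them adherens junctions (cadherins tied to actin by catenins) and desmosomes (tied to keratins by desmoplakin) hold the cells together. Goblet cells secrete the gel-forming mucin Muc2, and Fcgbp, Clca1 and the trefoil factor Tff3 are secreted with it.

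The proximal promoters of Krt20, Muc2 and Clca4b are shown because these genes had the largest moderated statistic of the members in Chic against Ctr1 (Krt20), Fru against Ctr1 (Muc2), and both CGA and STL against Ctr2 (Clca4b). Each is the stretch of 250 bases before the start of the gene, read 5′ to 3′ along the strand of the gene, from RefSeq on build GRCm38.p6: Krt20 at chr11:99438154-99438403 on the - strand, Muc2 at chr7:141690090-141690339 on the + strand and Clca4b at chr3:144932530-144932779 on the - strand. Capitals mark matches, on either strand, to 4 words searched: TATAAA (the TATA box), CACCTG (an E-box), GTTAAT (part of the site of HNF1) and TTTATTG (a CDX site). Read on the other strand, TATAAA is TTTATA and shares its first 5 letters with TTTATTG.
Krt20: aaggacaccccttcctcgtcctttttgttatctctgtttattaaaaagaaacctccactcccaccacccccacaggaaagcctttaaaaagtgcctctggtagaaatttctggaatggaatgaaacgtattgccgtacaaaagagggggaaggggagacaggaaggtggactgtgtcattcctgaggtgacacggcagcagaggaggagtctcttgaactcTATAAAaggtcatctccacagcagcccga
Muc2: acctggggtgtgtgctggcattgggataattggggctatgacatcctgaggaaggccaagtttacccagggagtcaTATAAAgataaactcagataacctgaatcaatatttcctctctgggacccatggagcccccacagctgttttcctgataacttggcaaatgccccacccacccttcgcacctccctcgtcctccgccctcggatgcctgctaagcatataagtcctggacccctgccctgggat
Clca4b: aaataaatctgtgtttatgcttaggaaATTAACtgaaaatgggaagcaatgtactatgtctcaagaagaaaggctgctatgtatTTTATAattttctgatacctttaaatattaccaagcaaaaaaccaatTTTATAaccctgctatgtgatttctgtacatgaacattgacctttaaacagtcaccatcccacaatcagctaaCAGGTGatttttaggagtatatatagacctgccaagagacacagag

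RefSeq promoters were found for 23 of the 35 members, 28 promoters in all. TATAAA lay in 5 of these 28 promoters (17.9%), namely those of Clca4b, Krt20, Muc2 and 1 each of Ctnnb1 and Ctnnd1, against 12.4% of all 32851 promoters of the same length. Krt20 holds it 29 bases before the start, Muc2 174 bases before it, and Clca4b on the opposite strand at 119 and 166 bases. CACCTG lay in 9 member promoters (32.1%, all promoters 17.2%), among them those of Epcam, Cldn7, F11r, Tjp3, Krt8 and Krt18. GTTAAT lay in those of Cdhr2, Clca4b and Muc13 (10.7%, all promoters 6.43%), and TTTATTG in 0 of them (all promoters 4.2%). A match is a description of these letters only.

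The authors' intensities were put on a log2 scale and quantile-normalized between the 16 arrays, and levels below are given on that scale. They can be compared between arrays for a gene and not between genes, since each probe has its own brightness. Before this step 4 arrays had a median more than 0.5 (log2) below the median of the 16 array medians. They were Fru 2 with a median intensity of 198, CGA 2 with 483, STL 3 with 505 and Chic 3 with 700.5, against 863 to 1704 elsewhere. Array number 2 of the Fru group was the dimmest and stood apart for the members.

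On the array Fru 2, 19 of the 35 members had their lowest value of all 16 arrays (54.3%), and 2 had their highest (5.71%), whereas 22.3% of all genes had their lowest value there and 17.2% their highest. The 19 were all 3 brush border genes, 9 of 16 junction genes, 5 of 9 mucus genes and 2 of 7 keratins. The median deviation from the level usual for each gene was -0.63 for junction genes, -0.88 for mucus genes, -0.91 for brush border genes and -0.29 for keratins, and -0.08 for all genes tested. Among the adherens junction genes the gap was wide: Ctnna1, alpha-catenin, stood at 10.85 on Fru 2 against 11.70 to 12.36 on the 15 other arrays. Ctnnd1, p120 catenin, which holds cadherins at the membrane, stood at 9.30 against 10.41 to 11.39. Pkp3, a plakophilin of the desmosome plaque, went the other way at 10.54 against 8.65 to 10.40, and so did Ctnnbl1 at 9.60 against 8.93 to 9.23. Ctnnbl1 carries a catenin-like name, but is known as a nuclear protein of the splicing machinery.

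Bright genes were lowest on Fru 2 more often than dim ones. Of the brightest 25% of all genes 30.6% were lowest there and of the dimmest 25% it was 13.4%, and among the members 12 of 19 and 0 of 3. The median correlation of Fru 2 with the other arrays was 0.848 over all genes. Markers of the tissue gave signal on all arrays. Sums over marker genes, in linear normalized intensity, were lowest on Fru 2 for 3 of the 13 lists measured. The 9 goblet cell markers, 4 of them members, summed to 61539 on Fru 2 and to 65547 to 93934 elsewhere, the 7 markers of stroma to 7126 and to 7424 to 13381, and the 3 markers of plasma cells to 10403 and to 11602 to 15593. The 1 endothelial gene was highest there, at 659.7 against 290.8 to 519.7. A sum follows its brightest genes, and single markers went both ways on Fru 2. Of the plasma cell markers Jchain was at its lowest (12.72, log2), Mzb1 at its highest (9.92) and Xbp1 within the range of the other arrays. Of the goblet cell markers Muc2, Fcgbp, Clca1 and Zg16 were at their lowest, whereas Retnlb was at its highest (11.955). The 11 markers of large intestine epithelium summed to 56501 on Fru 2, 56435 on STL 3 and 73494 to 117488 elsewhere. The 10 markers of small intestine enterocytes, Clca4a among them, summed to 24314 to 41452. This sum mostly follows the brightest of them, Fabp2, which lay at 13.89 to 14.41 (log2). Fabp6 ran from 6.38 on Fru 1 to 13.09 on Ctr1 2, and Anpep from 8.07 to 12.46 on the same arrays. Fabp6 stood at 11.19 and 12.71 in the Ctr2 mice, 7.24, 7.02 and 9.58 in the CGA mice and 7.60, 11.22 and 11.85 in the STL mice. Less epithelium in the sample, less RNA per cell and the dim hybridization cannot be told apart here, so the Fru results below are given with and without this array where it moves them.

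**Figure D1:**
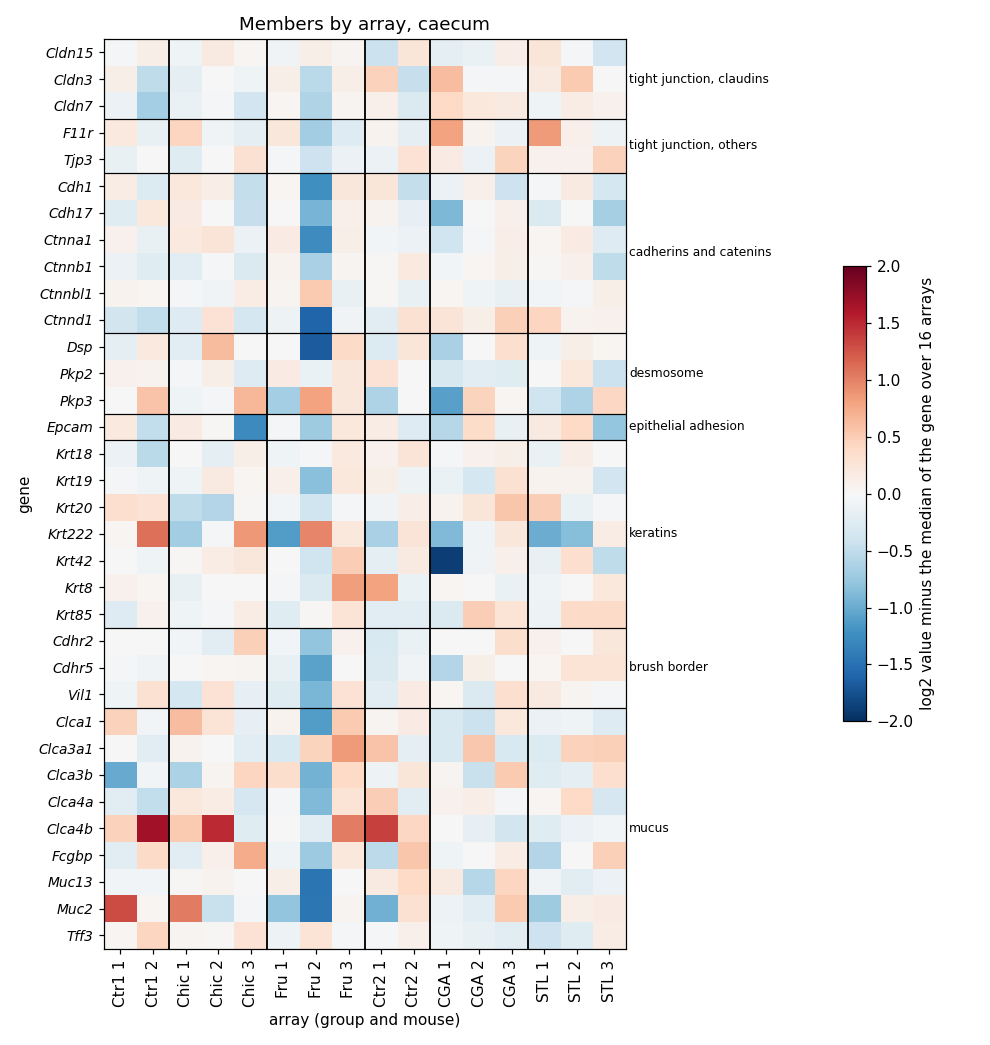
Log2 values of 34 of the 35 members (rows, ordered by role) on the 16 arrays (columns, vertical lines between groups), each coloured as its value minus the median of the gene over the arrays. The column Fru 2 is blue for most junction, brush border and mucus genes, and Krt42 is lowest on CGA 1.

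No member passed an adjusted p of 0.05 in any comparison (limma, adjusted over the 3779 genes): 0 of 35 under Chic, Fru, CGA and STL against their controls, and 0 for Fru against Chic and for Ctr2 against Ctr1. The share of all genes that passed was 0% under Chic, 0.0265% under Fru, 0% under CGA, 0% under STL, 0% for Fru against Chic and 0% for Ctr2 against Ctr1. At an unadjusted p of 0.05, 1 member passed under Chic (Krt20; 2.75% of all genes), 1 under Fru (Muc2; 7.12%), 0 under CGA (3.47%), 0 under STL (2.86%), 0 for Fru against Chic (1.24%) and 1 for Ctr2 against Ctr1 (Krt18; 6.03%). The lowest adjusted p of a member was 0.626, for Muc2 under Fru.

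Counted over the members, the mice of the compared groups did not overlap for 6 of 35 under Chic, against 15.7% of all genes. Of these 4 lay above Ctr1 (all genes 9.19%) and 2 below it (6.54%). Under Fru they did not overlap for 2 of 35 (all genes 18.2%), 1 above (10.4%) and 1 below (7.75%). Under CGA it was 6 of 35 (18.2%), 3 above (11.3%) and 3 below (6.89%), and under STL 6 of 35 (17.2%), 3 above (11.1%) and 3 below (6.04%). For Fru against Chic it was 0 of 35 (4.27%), with 0 above (1.99%) and 0 below (2.28%). The shares of the members thus lay close to those of all genes under Chic, CGA and STL. Under Fru they lay below them with Fru 2 included, a difference that was not tested. Without Fru 2, in groups of 2 mice each, Fru and Ctr1 did not overlap for 13 of 35 members (all genes 36.1%). For Fru against Chic it was then 5 of 35 (11.9%). Ctr2 against Ctr1 gave 10 of 35 (33.5%), 5 above (19.9%) and 5 below (13.6%). With all arrays, the controls were compared as 2 mice against 2 and the diets with their controls as 3 against 2, so these counts cannot be ranked. In each comparison the share of all genes is the background for the single genes below.

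The precision differed between genes. The 95% interval of the difference lay within a change of 2-fold either way for 24 of the 35 members under Chic, 18 under Fru, 22 under CGA and 23 under STL, so for these a change of 2-fold lay outside the interval. For the remaining members the interval held a change of 2-fold or more, and these data cannot show whether one was there. The median SD between mice of a group was 0.39 for junction genes, 0.33 for keratins, 0.32 for brush border genes and 0.46 for mucus genes, and 0.30 over all genes. Without Fru 2 it was 0.26, 0.28, 0.21 and 0.45, and 0.26 over all genes, so the mucus genes kept a spread above that of all genes without this array.

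**Figure D2:**
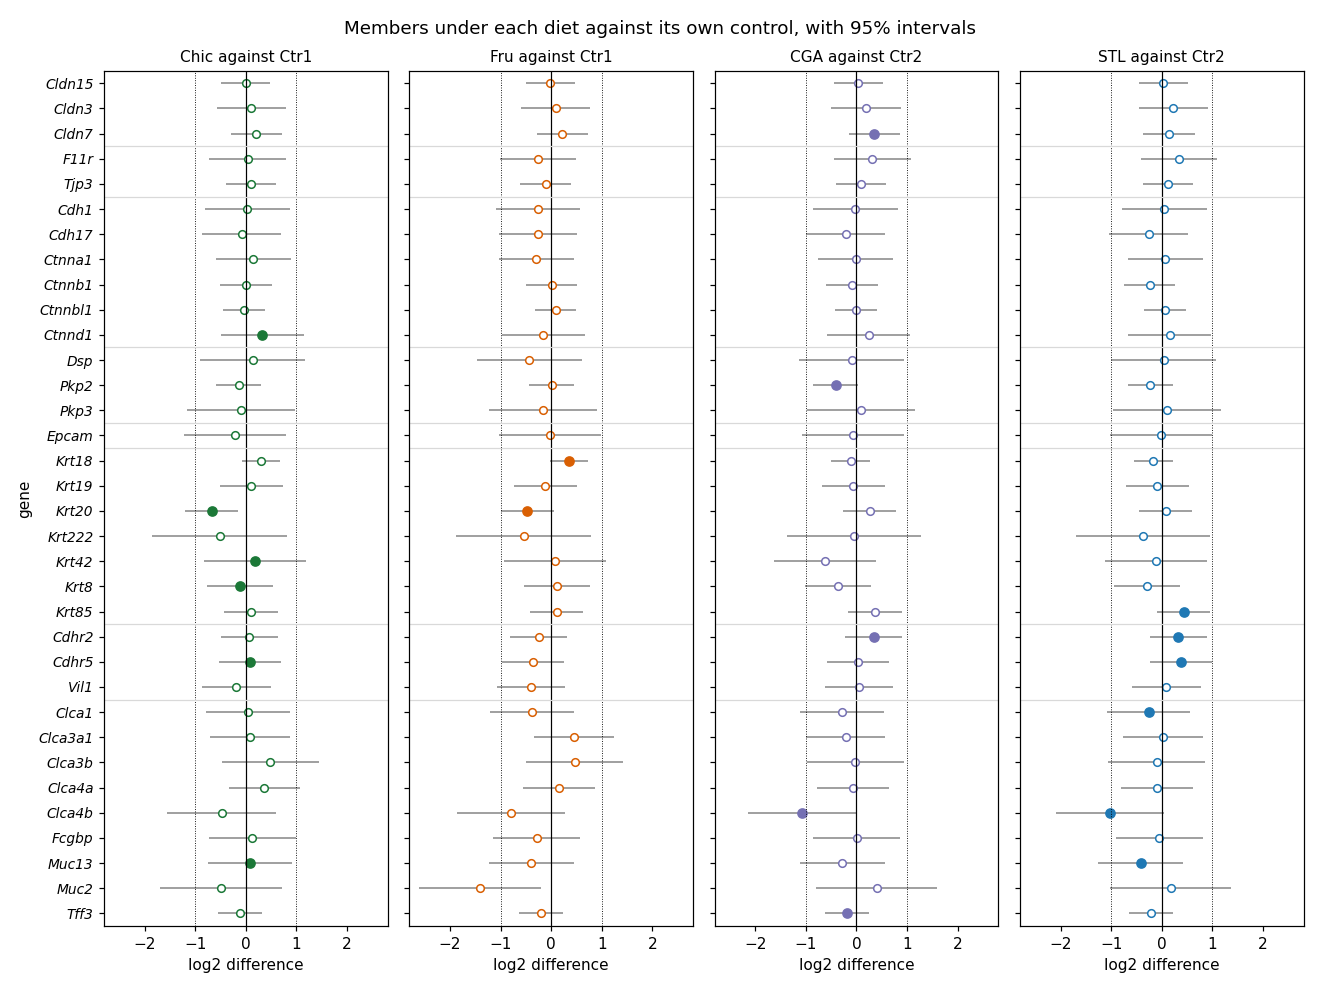
Log2 difference of 34 of the 35 members under each diet against its own control (point) with its 95% interval (bar), 3 mice against 2, with dotted lines at a change of 2-fold. Filled points mark genes whose mice do not overlap between the groups. All intervals except those of Krt20 under Chic and Muc2 under Fru reach or cross 0.

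Among the claudins, the strands of the tight junction, Cldn7 lay above both Ctr2 mice in all CGA mice. It stood at 12.96, 12.78 and 12.74 in the CGA mice and at 12.67 and 12.28 in the Ctr2 mice, without overlap, a difference of 0.35 (standard error 0.24, 95% interval -0.15 to 0.86, limma adjusted p = 1.00). In the STL mice it stood at 12.48, 12.72 and 12.65, which overlaps with Ctr2. Cldn3, a claudin that tightens the barrier, differed from its control by 0.11 under Chic, 0.09 under Fru, 0.19 under CGA and 0.23 under STL, and the Ctr2 mice alone stood at 13.05 and 12.12. Cldn15, which forms a channel for sodium ions between gut cells, was among the most even of the members, with a range of 9.35 to 10.02 over the 16 arrays and differences between -0.01 and 0.03 under the 4 diets. Its interval under STL ran from -0.45 to 0.52.

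Tjp3 (ZO-3), a scaffold protein under the tight junction, differed from its control by 0.11 under Chic, -0.11 under Fru, 0.08 under CGA and 0.13 under STL, each with a standard error of 0.23. F11r (JAM-A), an adhesion molecule of the tight junction, had its highest values in 1 mouse each of CGA and STL: 11.82, 11.08 and 10.89 in the CGA mice and 11.87, 11.11 and 10.91 in the STL mice, against 11.08 and 10.82 in the Ctr2 mice. Both groups overlap with Ctr2.

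Of the adherens junction genes, Cdh1 encodes E-cadherin. Its values were 10.91 and 10.49 in Ctr1, 10.98, 10.90 and 10.29 in Chic, 10.80, 9.54 and 10.99 in Fru, 11.01 and 10.29 in Ctr2, 10.65, 10.87 and 10.35 in CGA and 10.73, 10.95 and 10.42 in STL, and all groups overlap. Fru 2 minus the lowest of the 15 other arrays was -0.75. The Cdh1 probe is printed as 10 spots on each array, with a median SD between spots of 0.13, whereas the SD between mice of a group was 0.46, or 0.32 without Fru 2. Ctnnb1 (beta-catenin), which also carries Wnt signals, ranged from 10.24 to 10.94 on the 15 arrays other than Fru 2. It differed from its control by 0.01 under Chic and -0.08 under CGA, and under STL by -0.24 (standard error 0.24) with 10.77, 10.84 and 10.24 in the STL mice against 10.77 and 10.94 in the Ctr2 mice. Cdh17, the cadherin of the intestinal epithelium, overlapped between the groups of all 4 diet comparisons.

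Ctnnd1 lay above both Ctr1 mice in the Chic mice, at 10.64, 11.19 and 10.55, against 10.53 and 10.41 in Ctr1. The difference was 0.33 (standard error 0.38, 95% interval -0.50 to 1.15, limma adjusted p = 1.00). The Fru mice stood at 10.80, 9.30 and 10.84, with Fru 1 and Fru 3 above both Ctr1 mice and Fru 2 below all 15 other arrays, and the Fru difference of -0.16 became 0.34 without Fru 2. The Ctr2 mice stood above Ctr1 as well, at 10.69 and 11.21.

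Of the desmosome genes, Pkp2, a plakophilin, stood at 8.54, 8.64 and 8.62 in the CGA mice, all below the 9.15 and 8.88 of the Ctr2 mice. The difference was -0.41 (standard error 0.20, 95% interval -0.85 to 0.03, limma adjusted p = 1.00). The STL mice, at 8.85, 9.08 and 8.43, overlap with Ctr2. Dsp, desmoplakin, differed from its control by 0.14 under Chic, -0.09 under CGA and 0.04 under STL, with a standard error of 0.48. Under Fru it differed by -0.43 (standard error 0.48, 95% interval -1.47 to 0.61, limma adjusted p = 0.96), with 10.43, 8.77 and 10.81 in the Fru mice and 10.24 and 10.62 in the Ctr1 mice. Dsp also has 10 spots on each array, and on Fru 2 1 of them was deposited at an intensity of 2 while the other 9 lay at 99 to 137. With the median of the spots Dsp stood at 9.20 on Fru 2, still below the 9.82 of the next lowest array, and the difference became -0.36. Without Fru 2 it was 0.18 (standard error 0.33).

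Epcam, an adhesion protein of epithelial cells, was low on 3 of the 4 dim arrays, with 10.06 on Chic 3, 10.55 on STL 3 and 10.61 on Fru 2. On CGA 2, the remaining dim array, it stood at 11.69, and elsewhere at 10.76 to 11.73. Its difference under Chic was -0.21, and its groups overlap in all 4 diet comparisons.

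The keratin Krt20, an intermediate filament protein of the mature cells at the surface of the gut lining, lay below both Ctr1 mice in all Chic mice and all Fru mice. It stood at 12.99, 12.91 and 13.52 in the Chic mice, 13.44, 13.10 and 13.48 in the Fru mice and 13.84 and 13.79 in the Ctr1 mice. The difference was -0.67 (standard error 0.24, 95% interval -1.19 to -0.15, limma adjusted p = 1.00), with an unadjusted p of 0.0152 under Chic, and -0.47 (standard error 0.24, 95% interval -0.99 to 0.05, limma adjusted p = 0.748) under Fru. Without Fru 2 the Fru difference was -0.35 (standard error 0.25), again without overlap. Without Chic 3, one of the dim arrays, the Chic difference was -0.86. Chic 1, Chic 2 and Chic 3 were at 0.565, 0.535 and 0.816 of the Ctr1 mean on the linear scale. The Ctr1 mice were also above the Ctr2 mice (13.43 and 13.63), and Krt20 under CGA (13.57, 13.74 and 14.05) and STL (13.99, 13.36 and 13.46) overlapped with Ctr2. Since both comparisons of Krt20 use the same Ctr1 mice, they are not independent. Fru against Chic gave 0.20 (standard error 0.22), with overlap.

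Krt8 and Krt18 pair as the main keratin filament of simple epithelia. With the brighter of the 2 Krt8 probes, their differences had the same sign in 5 of the 6 comparisons, Chic against Ctr1 being the exception. Under CGA and STL they were -0.37 and -0.30 for Krt8 and -0.11 and -0.17 for Krt18. Krt18 was above both Ctr1 mice (12.45 and 12.04) in all 3 Fru mice (12.49, 12.53 and 12.77), a difference of 0.35 (standard error 0.18, 95% interval -0.03 to 0.74, limma adjusted p = 0.736) that was 0.37 without Fru 2, and in 2 of the 3 Chic mice (12.56, 12.37 and 12.69). The largest gap of Krt18 was between the controls. The Ctr2 mice stood at 12.65 and 12.82, which is 0.49 (standard error 0.19) above Ctr1 (unadjusted p = 0.0245, limma adjusted p = 0.795). Krt8 stood at 13.96, 14.12 and 14.11 in the Chic mice and 14.20 and 14.15 in the Ctr1 mice, without overlap, a difference of -0.11 (standard error 0.30), where that of Krt18 was 0.30 (standard error 0.18). Krt8 has 2 probes, and the dimmer one gave -0.17 for Fru against Ctr1 and -0.24 for Ctr2 against Ctr1, where the brighter one gave 0.11 and 0.27. With the dimmer probe, Krt8 and Krt18 thus differed in sign in both of these comparisons as well as in Chic against Ctr1. Under Chic, CGA and STL both probes gave a lower value than the control.

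Krt19, the other keratin of simple epithelia measured here, differed from its control by -0.12 to 0.11 under the 4 diets (standard error 0.29). The lowest of these was under Fru, and without Fru 2 it was 0.21 (standard error 0.22), above Ctr1 without overlap. Krt42, a type I keratin, had 1 value far from the rest, 9.92 on CGA 1, whereas the other 15 arrays lay between 11.29 and 12.29. Its difference under CGA was -0.62 (standard error 0.47), and 0.02 without CGA 1. Under Chic its mice stood just above Ctr1, at 11.83, 11.94 and 12.03 against 11.79 and 11.72. Krt85, known as a hair keratin, stood at 9.95, 10.43 and 10.43 in the STL mice, above the 9.85 and 9.84 of the Ctr2 mice, by 0.43 (standard error 0.25). Markers of stratified squamous epithelium were nearly unmeasured, with 2 genes on the list found in the table.

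Krt222, Pkp3 and the mucus gene Tff3 shared 1 feature across the arrays: for each, the 3 highest arrays were Ctr1 2, Chic 3 and Fru 2. This held for 3 of the 35 members (8.57%) and for 1.12% of all genes. The 3 arrays were picked from the values of these same members, so the 2 shares are no test of the members. Krt222 stood at 10.05, 9.82 and 9.93 on these arrays and at 7.83 to 9.21 on the other 13. Ctr1 2 had the highest floor of the 16 arrays, with a lowest deposited intensity of 300, and Chic 3 and Fru 2 are among the dim ones. The part of these array properties in the values was not tested. Krt222 and Pkp3 overlapped between the groups of all 4 diet comparisons, with standard errors of 0.62 and 0.49.

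**Figure D3:**
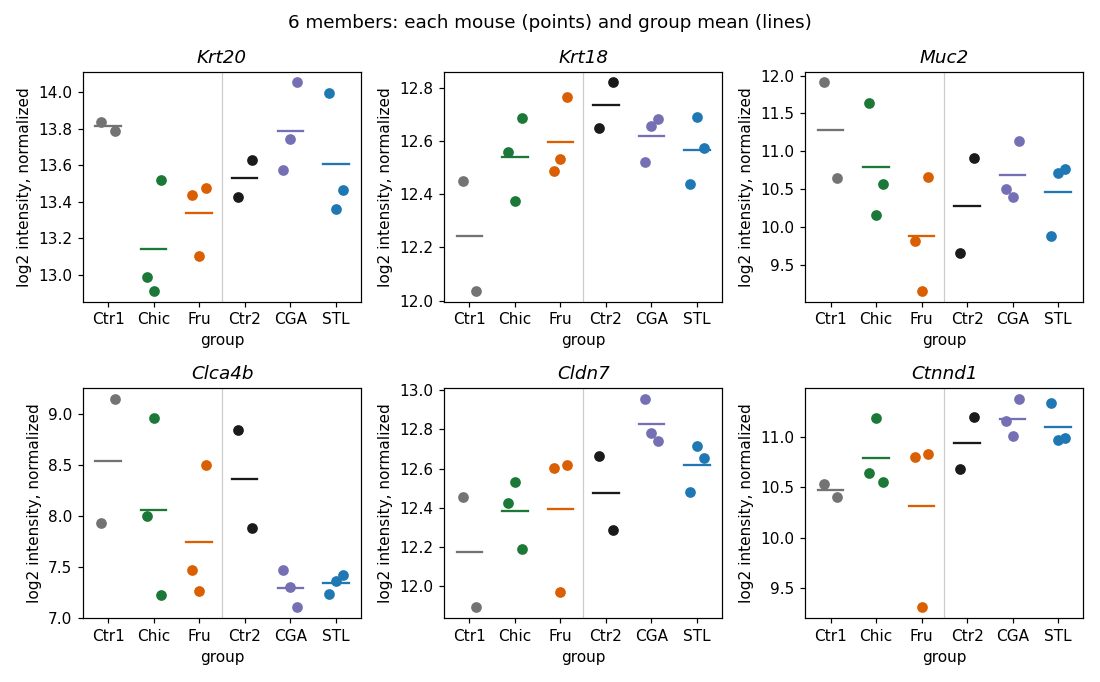
Normalized log2 intensity of 6 members in each mouse (points) with the group mean (line), the Ctr1 comparisons to the left and the Ctr2 comparisons to the right of the vertical line; the axes do not start at 0. Krt20 is below both Ctr1 mice in all Chic and Fru mice, Clca4b is below both Ctr2 mice in all CGA and STL mice, and Muc2 and Ctnnd1 are lowest on Fru 2.

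Of the brush border genes, Cdhr2 and Cdhr5 encode the cadherins that link the tips of microvilli. Cdhr2 stood at 11.58, 11.58 and 11.93 in the CGA mice and 11.66, 11.58 and 11.81 in the STL mice, all above the Ctr2 mice at 11.28 and 11.44. The differences were 0.34 (standard error 0.26, 95% interval -0.22 to 0.90, limma adjusted p = 1.00) and 0.33 (standard error 0.26, 95% interval -0.24 to 0.89, limma adjusted p = 1.00). Cdhr5 was above Ctr2 (10.58 and 10.80) in all STL mice (10.91, 11.14 and 11.14), by 0.38 (standard error 0.28, 95% interval -0.24 to 0.99, limma adjusted p = 1.00), and in 2 of 3 CGA mice (10.29, 10.98 and 10.89). The Ctr2 mice were themselves below the Ctr1 mice for both genes, without overlap, by -0.21 and -0.13. Under Chic, Cdhr5 was above Ctr1 by 0.08 without overlap. Vil1, villin, which bundles actin in the microvilli, overlapped between all diet groups and controls. Under Fru all 3 brush border genes had a lower mean than in Ctr1, with differences of -0.25 to -0.39, but without Fru 2 the differences were 0.02 for Cdhr2, -0.01 for Cdhr5 and -0.08 for Vil1.

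Muc2, the gel-forming mucin of the gut, had the widest range of the members, from 9.15 on Fru 2 to 11.91 on Ctr1 1. Its values were 11.91 and 10.65 in Ctr1, 11.64, 10.16 and 10.56 in Chic, 9.82, 9.15 and 10.66 in Fru, 9.65 and 10.91 in Ctr2, 10.51, 10.40 and 11.14 in CGA and 9.89, 10.72 and 10.77 in STL. The Fru and Ctr1 mice overlap, since Fru 3 stood just above Ctr1 2. The difference was -1.40 (standard error 0.56, 95% interval -2.60 to -0.21, limma adjusted p = 0.626), with an unadjusted p of 0.025. Without Fru 2 it was -1.03 (standard error 0.57), while it was -0.78 without Ctr1 1, the highest array, and -2.03 without Ctr1 2. The 2 highest arrays, Ctr1 1 and Chic 1, were also those with the highest sums over the 5 measured liver markers, 12908 and 10302 in linear intensity, against 449 to 6570 on the other 14. The part of these genes in the Muc2 values was not tested.

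Of the genes secreted with Muc2, the Fru differences were -0.29 (standard error 0.40) for Fcgbp, -0.38 (standard error 0.38) for Clca1 and -0.19 (standard error 0.20) for Tff3, and without Fru 2 they were -0.03, 0.09 and -0.30. Whether they differed from that of Muc2 was not tested. Fcgbp, a protein that binds mucin in the gel, differed by 0.12, 0.01 and -0.05 under Chic, CGA and STL. Clca1, a secreted goblet cell protease, was below both Ctr2 mice (13.55 and 13.66) in all STL mice (13.38, 13.41 and 13.23), by -0.26 (standard error 0.38, 95% interval -1.09 to 0.57, limma adjusted p = 1.00). Tff3 was below both Ctr2 mice (13.26 and 13.37) in all CGA mice (13.19, 13.14 and 13.05), by -0.19 (standard error 0.20, 95% interval -0.62 to 0.24, limma adjusted p = 1.00), and in 2 of 3 STL mice (12.86, 13.04 and 13.43). Muc13, a mucin anchored in the cell membrane, was below Ctr2 (14.26 and 14.49) in all STL mice (14.03, 13.87 and 13.97), by -0.42 (standard error 0.39, 95% interval -1.26 to 0.42, limma adjusted p = 1.00), and just above Ctr1 (14.03 and 14.04) in all Chic mice (14.11, 14.17 and 14.08). Fru 2 was its lowest array at 12.62, against 13.52 to 14.52 elsewhere. The Fru difference of Muc13 was -0.39 (standard error 0.39), and 0.12 (standard error 0.25) without Fru 2.

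Clca4b, of the family named for calcium-activated chloride channel regulators, lay below both Ctr2 mice in all CGA and STL mice. Its signal was low: it was 1 of the 3 members in the dimmest 25% of all genes. Before normalization its intensities were 132, 58 and 221 in the CGA mice and 140, 174 and 87 in the STL mice. The Ctr2 mice had 635 and 300, and no background or detection values are given. On the normalized scale Clca4b stood at 7.47, 7.31 and 7.10 in the CGA mice, 7.24, 7.36 and 7.42 in the STL mice and 8.84 and 7.88 in the Ctr2 mice, with the Ctr2 mice further apart from each other than the 6 treated mice. The differences were -1.07 (standard error 0.50, 95% interval -2.14 to 0.00, limma adjusted p = 1.00) and -1.02 (standard error 0.50, 95% interval -2.09 to 0.05, limma adjusted p = 1.00), with unadjusted p-values of 0.05001 and 0.0593 from limma. They were -0.60 and -0.55 without Ctr2 1, the higher of the controls, and -1.56 and -1.51 without Ctr2 2. In linear values the mice were at 0.511, 0.456 and 0.395 of the Ctr2 mean under CGA and at 0.434, 0.473 and 0.493 under STL. The other mice stood at 7.93 and 9.15 in Ctr1, 8.00, 8.97 and 7.22 in Chic and 7.47, 7.26 and 8.50 in Fru, with values both near those of Ctr2 and near those of the CGA and STL mice. Because the CGA and STL mice share the Ctr2 mice, these comparisons are not independent.

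The 13 measured Paneth cell markers varied between mice of a group. Their sum in linear intensity was 62738 and 160208 in the Ctr2 mice, 2625 to 9920 in the CGA mice and 2115, 50058 and 125953 in the STL mice, and their part in the Clca4b values was not tested. In the STL mice, in the same order, Clca4b stood at 7.24, 7.36 and 7.42. All CGA mice had lower sums than both Ctr2 mice, so diet and Paneth cell content cannot be told apart there. The sums were 3680 and 222115 in the Ctr1 mice and 29360, 163771 and 2692 in the Chic mice. In the Fru mice they were 2731, 7667 and 65805. In Ctr1, Chic, Fru and STL the mouse with the highest sum also had the highest Clca4b of its group. In Ctr2 and CGA that mouse had the lowest. RefSeq places the 5 Clca members, Clca1, Clca3a1, Clca3b, Clca4a and Clca4b, on chromosome 3, and related members may share hybridization signal. The differences of the other 4 were smaller: Clca4a differed by -0.07 under CGA and -0.10 under STL, Clca3a1 by -0.22 and 0.03, Clca3b by -0.03 and -0.10, and Clca1 by -0.28 and -0.26. Clca3a1, Clca3b and Clca4a overlapped between the groups of all 4 diet comparisons. Whether Clca4b differed from the others was not tested.

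The methods give fold changes above 2 or below 0.5 as the threshold, each treated sample being set against its control mean, and do not state how the mice of a group were combined. With every mouse required to pass, it was met by 1 member, Clca4b under STL, and by 0 members under Chic, Fru and CGA. Of all genes it was met in every mouse by 2 upwards and 3 downwards under Chic, 7 and 28 under Fru, 3 and 31 under CGA and 5 and 13 under STL. On the group mean it was met by Muc2 under Fru and by Clca4b under CGA and STL, and of all genes by 15 upwards and 30 downwards under Chic, 45 and 62 under Fru, 13 and 47 under CGA and 21 and 29 under STL.

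The junction and mucus genes were then set side by side, by the median of their log2 differences. Both groups follow gene names: the junction group holds Ctnnbl1, and the mucus group holds Muc13 and the Clca members, with the enterocyte marker Clca4a. Under Chic the medians were 0.02 for the 16 junction genes and 0.08 for the 9 mucus genes. Under CGA they were 0.01 and -0.19, with 7 of 9 mucus genes and 8 of 16 junction genes below Ctr2. Under STL they were 0.06 and -0.10, with 7 of 9 and 4 of 16 below. All genes had medians of 0.03, 0.04 and 0.03 in these comparisons. The gaps between junction and mucus medians were -0.06, 0.20 and 0.16. Taken on single arrays, from deviations from the median of each gene, the gap had an SD of 0.17 between mice of a group. That is the spread of single mice, not of a difference between group means, and no gap was tested.

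Under Fru the junction median was -0.13 and the mucus median -0.29, with 23 of all 35 members below Ctr1. Without Fru 2 the medians were 0.14 and 0.09, and 22 of 35 members lay above Ctr1, so the direction of the members under Fru turned with 1 array. Fru against Chic, which sets the sugar beside the whole decoction, turned too, with 26 of 35 members lower in Fru and a median of -0.12, and 21 of 35 higher and a median of 0.04 without Fru 2. The all-gene medians were 0.01 and -0.01 with the array and 0.04 and 0.00 without it. The widest Fru against Chic differences were those of Muc2 at -0.91 (standard error 0.50, 95% interval -1.98 to 0.16, limma adjusted p = 1.00) and Dsp at -0.57 (standard error 0.43), which were -0.54 and 0.05 without Fru 2. Without Fru 2, 13 members did not overlap between Fru and Ctr1, 11 above (Clca3b, Clca4a, Cldn7, Ctnna1, Ctnnb1, Ctnnd1, Krt18, Krt19, Krt42, Muc13 and Pkp2) and 2 below (Krt20 and Tff3), in groups of 2 mice each, against 36.1% of all genes. Between Fru and Chic 5 members then did not overlap, Cldn3, Cldn7, Ctnnb1 and Pkp2 above and Tff3 below, against 11.9% of all genes.

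**Figure D4:**
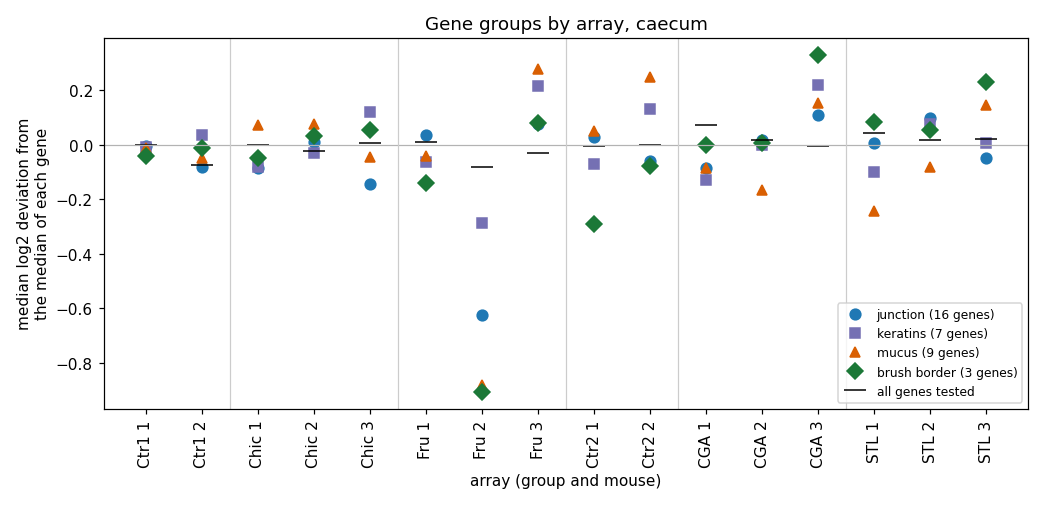
Median log2 deviation of the junction, keratin, mucus and brush border genes from the median of each gene, on each of the 16 arrays, with all genes tested as black bars. Fru 2 lies at -0.63, -0.29, -0.88 and -0.91, whereas all other points lie between -0.29 and 0.33.

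Other genes of the same structures gave no call either. Of 57 further junction genes listed 14 were measured, of 17 further brush border genes 12, and of 41 further mucus and goblet cell genes 19, and 0 passed in each direction in each of the 6 comparisons. Their medians under Chic, Fru, CGA and STL were 0.10, -0.07, 0.18 and 0.15 for the junction list, -0.09, -0.15, 0.17 and 0.14 for the brush border list, and -0.02, -0.14, 0.00 and -0.07 for the mucus list.

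In each list the gene with the largest moderated statistic under each diet is given. In the junction list they were Itgb4, an integrin that anchors cells to the basement membrane, at 0.74 (standard error 0.38) under Chic, Lsr, a protein of the junctions where 3 cells meet, at -0.46 (0.25) under Fru, Myh14, a myosin, at 0.42 (0.26) under CGA, and Ybx3 at 0.32 (0.18) under STL. The mice did not overlap for Lsr, Myh14 and Ybx3. In the brush border list it was Myo1a, a myosin of the microvilli, under Chic, at 0.31 (0.21) with overlap, and Myo7b under the other 3 diets. Myo7b, a motor protein that works with Cdhr2 and Cdhr5 at the tips of microvilli, stood at 8.47, 8.24 and 8.24 in the CGA mice and 8.04, 8.11 and 8.02 in the STL mice, above 7.15 and 7.96 in the Ctr2 mice. The difference was 0.76 (standard error 0.34, limma adjusted p = 1.00) under CGA and 0.50 under STL. Under Fru it was -0.66 (standard error 0.34), and -0.46 without Fru 2.

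In the mucus list Klk1, a tissue kallikrein, had the largest statistic under Fru. It stood at 11.56, 11.13 and 11.53 in the Fru mice, below 12.95 and 11.93 in the Ctr1 mice and 12.65, 11.80 and 11.78 in the Chic mice, without overlap. The difference from Ctr1 was -1.03 (standard error 0.33, limma adjusted p = 0.548, unadjusted p = 0.00749) and that from Chic -0.67 (standard error 0.29, unadjusted p = 0.0405, limma adjusted p = 1.00), and they were -0.87 and -0.51 without Fru 2. Atoh1, the factor that directs cells to the secretory lineage, stood at 8.29, 8.20 and 8.22 in the Fru mice and 9.32 and 8.52 in the Ctr1 mice, a difference of -0.68 (standard error 0.24, limma adjusted p = 0.582). Under Chic, where Atoh1 led the list, the difference was -0.36 (standard error 0.24) with overlap. Guca2a, the hormone guanylin, led under CGA at 0.50 (standard error 0.24) and Agr2, which helps to fold Muc2, under STL at -0.43 (standard error 0.42), both without overlap. Under Fru 3 further goblet cell genes, named after their values were seen, overlapped with Ctr1: Spdef at -0.997 (standard error 0.61), Agr2 at -0.79 (0.42) and Rep15 at -0.71 (0.36). Over the 19 measured genes of this list the Fru differences ran from -1.03 to 0.32, with a median of -0.14. The 2 highest arrays of Klk1, Atoh1, Agr2 and Spdef were Ctr1 1 and Chic 1, which were also the 2 highest of Muc2. Those of Rep15 were Ctr1 1 at 10.29 and CGA 1 at 10.08, with Chic 1 at 9.72. This pair of arrays was picked after the values were seen, and its share among all genes was not counted.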

How the data were processed

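Caecum RNA of 16 mice was hybridized to Agilent arrays in 1 colour. The authors deposited a caecum table of whole-number intensity values on a linear scale, with probe, symbol and accession. GenePix Pro and a quantile normalization are named in the methods, and Agilent Feature Extraction, with no version, in the labels. The deposited intensities have 16 distinct array medians, so they were log2-transformed and quantile-normalized here (limma 3.58.1, R 4.3.3). All 99424 values of the table equal the deposited series matrix. Of 6214 rows, 227 control rows and 878 without a symbol were left out, and 23 values at or below 0 were set to missing, 0 of them of members.

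The spots of a probe were averaged, and the brightest probe stood for a gene, which gave 3779 genes. Symbols were updated for 88 of them through the accession in a RefSeq table. The 35 members have 36 probes and 54 spots, and 34 were found in that table. All 6 groups entered one limma fit (lmFit and eBayes, two-sided, Benjamini-Hochberg over all genes, threshold 0.05), so the spread of a gene is shared by all groups. It was checked on simulated data. The tables hold no background or detection values, and the number of arrays limits the precision. For no pair of arrays were the values identical.

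Members and gene lists were chosen with earlier results of these data known, so no p-value was adjusted over them alone. Genes named are the called members (0 here), the 3 highest and 3 lowest moderated statistics of each comparison, 23 measured of 35 defining genes, and the top gene of each further list under each diet; other genes were named after their values were seen. Defining genes not measured, such as Ocln and Tjp1, were not analysed here. 1 junction member, kept in all counts and medians, is not reported here. Fru 2 was singled out after its values were seen. Replicate numbers are individual labels: deviations of same-numbered mice correlated between -0.40 and 0.57, so they were not treated as pairs. Liver and ileum were not used. Plots were drawn with Python 3.11.15 and matplotlib 3.10.9.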

Additional observations from a re-analysis of the deposited data

How the results depend on the processing

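The count of members called stayed at 0 in each of the 6 comparisons under 10 other planned settings, with each of 16 arrays left out, and with the median of spots, a setting chosen after seeing the data. With the replicate number as a block it was 0 in all 6 comparisons too. Without Ctr1 1, which leaves 1 Ctr1 mouse assumed to vary like the other groups, 40 genes of the whole table passed under Chic, 44 under Fru and 38 for Ctr2 against Ctr1, and without Ctr2 1 it was 22 under CGA, 20 under STL and 18 for Ctr2 against Ctr1, 0 of them members. Pooled controls apply to the 4 diet comparisons only.

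Without normalization between arrays, differences turned to -0.11 for Krt18 and -0.26 for Clca3b (Fru against Ctr1), -0.015 for Cdhr2 (STL), and -0.060 for Krt20 and -0.43 for Pkp2 (Fru against Chic), and 34 of 35 members were lower in Fru than in Ctr1 (median -0.70, all genes -0.60). With the arrays shifted to the same 75th percentile Pkp2 was at -0.012. Muc2 under Chic was at 0.005 with pooled controls. With single arrays left out, Muc2 under Chic ran from -1.12 (without Ctr1 2) to 0.13 (without Ctr1 1), Clca4b under Chic from -1.10 (without Ctr1 1) to 0.13 (without Ctr1 2), Clca3b under Fru from -0.017 (without Ctr1 1) to 0.94 (without Ctr1 2), Muc2 under Fru from -2.03 (without Ctr1 2) to -0.78 (without Ctr1 1), Ctnna1 in Fru against Chic from -0.68 (without Fru 1) to 0.027 (without Fru 2), and Krt42 under CGA from -0.98 (without CGA 3) to 0.017 (without CGA 1). The cause was not tested.

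The junction minus mucus median ran, with single arrays left out, from -0.10 to 0.03 under Chic, from -0.056 (without Ctr1 2) to 0.31 under Fru, from 0.08 to 0.25 under CGA, from 0.12 to 0.36 (without STL 3) under STL, from 0.0016 (without Fru 2 or Chic 2) to 0.49 (without Fru 3) for Fru against Chic, and from -0.28 (without Ctr1 2) to 0.051 for Ctr2 against Ctr1, where it was -0.16 without Ctr2 2. It was -0.16 for Ctr2 against Ctr1 without the dimmest 25% of genes, and with the 4 dim arrays left out 0.35 under STL and 0.048 for Fru against Chic. The fold threshold was met by 1 member each under Fru, CGA and STL on the mean of the mice and by 1 under CGA with values as deposited.

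With 2 or 3 mice per group, the intervals of 11 to 17 of 35 members under each diet held a change of 2-fold, so for these members a change of that size could not be told from none.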
